A study of Homo sapiens with 12 samples.

Results

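The signal described here is that of RNA45SN5, one of the human genes for the 45S precursor of ribosomal RNA (rRNA). It was read by 2 of the 54675 probe sets on the Affymetrix array, 225762_x_at and 225767_at, which are the probe sets that the platform annotation gives to this gene alone. The gene is 1 of 19775 that the annotation names for the array. They were chosen on their signal with taurolidine against untreated cells, which was among the largest differences of these arrays, so that difference is given as a description with no test. Both were set against the 6 control probe sets for mature 18S and 28S rRNA and 27 probe sets that read poly-A spike-in RNAs on the same arrays. The spike-ins (dap, lys, phe, thr and trp) are bacterial transcripts with a poly-A tail that are added to a sample at labelling.

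Ribosomal RNA is made in the nucleolus, where RNA polymerase I copies tandem repeats of ribosomal DNA into a long precursor. Endonucleases and exonucleases remove its spacers and release the mature RNAs of the small and large ribosomal subunits, and the spacer pieces are degraded by the nuclear exosome. The precursor is short-lived and, unlike messenger RNA, is not normally made with a poly-A tail, although short tails are added to some nuclear RNAs before decay. The labelling used for these arrays starts from the poly-A tail, so the precursor is not its intended target. In RefSeq (GRCh38.p14) the genes RNA18SN5, RNA5-8SN5 and RNA28SN5 lie inside RNA45SN5 in that order. That assembly lists 5 such precursor genes, of which 3 are on chromosome 21, 1 is on chromosome 22 and RNA45SN5 itself is on an unplaced sequence. The suffix x_at marks a probe set with probes that can match several sequences, so signal from the repeats cannot be assigned to 1 copy.

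The arrays came from 3 established human soft tissue sarcoma lines: A-204 (labelled rhabdomyosarcoma), SK-LMS-1 (leiomyosarcoma) and VA-ES-BJ (epithelioid sarcoma). Each line was given taurolidine (250 µmol/l) with TRAIL (50 ng/ml), taurolidine alone or TRAIL alone for 6 h, or was left untreated. The labels give no time for untreated cells. There was 1 array per line and treatment, and 12 arrays in all. Taurolidine is a taurine derivative used as an antimicrobial agent, and TRAIL is a ligand of death receptors. Each group of 3 arrays therefore holds 1 array of each line, and no line has a repeated treatment. Values are MAS5 signals, which are probe intensities scaled by the authors to a common mean on every array. The skeletal muscle markers MYOD1, MYOG and MYH3 were above 136.5, the median of all values in the table, on 0 of the 12 arrays, while DES, the other skeletal muscle marker checked, was above it on 7 and had signals near it in untreated cells, at 132 for A-204, 127 for SK-LMS-1 and 145 for VA-ES-BJ. The smooth muscle gene TAGLN had signals of 271 for A-204, 9763 for SK-LMS-1 and 4245 for VA-ES-BJ when untreated, and the keratin gene KRT19 had 9.33, 27.9 and 16189 in the same order. CNN1, of smooth muscle, had 17.7, 661 and 162 in that order, and MYH11, above 136.5 on only 3 arrays, had 56.5, 137 and 71.5. KRT18 was highest in VA-ES-BJ but high in all 3 lines, at 9211, 11164 and 18904. Other markers did not follow the labels: ACTA2, of smooth muscle, had 1667, 1686 and 4979.9, and EPCAM had 1915, 13.8 and 130.5. SMARCB1, a chromatin remodelling subunit typically lost in epithelioid sarcoma, had signals of 1235 for A-204, 3530.1 for SK-LMS-1 and 152 for VA-ES-BJ.

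Both probe sets had a low signal on every array without taurolidine and a signal above 1000 on every array with it. Probe set 225762_x_at had signals of 4799.7 for A-204, 1097 for SK-LMS-1 and 2402 for VA-ES-BJ with both agents, and of 4309.6, 1819 and 2570.0 with taurolidine alone. With TRAIL alone the same lines had 216, 101 and 24.7, and untreated cells had 163, 197 and 11.7. The lowest signal with taurolidine was that of SK-LMS-1 and the highest without it was that of A-204 with TRAIL, and the 6 arrays with taurolidine (median 2486) did not overlap the 6 without it (median 132).

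Probe set 225767_at had signals of 29661 for A-204, 5514 for SK-LMS-1 and 12649.8 for VA-ES-BJ with both agents, and of 23949 (A-204), 5565 (SK-LMS-1) and 14743 (VA-ES-BJ) with taurolidine alone. With TRAIL alone it had 476, 305 and 345, and untreated cells had 386, 231 and 151. Again the groups did not overlap, with a median of 13697 over the 6 arrays with taurolidine and 325 over the 6 without. Of the 32421 probe sets tested, 424 (1.31%) had all 6 arrays with taurolidine above the 6 without, and 1473 (4.54%) had them all below. These shares are the setting for the 2 probe sets and say nothing further about them, since they were chosen for this contrast.

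**Figure D1:**
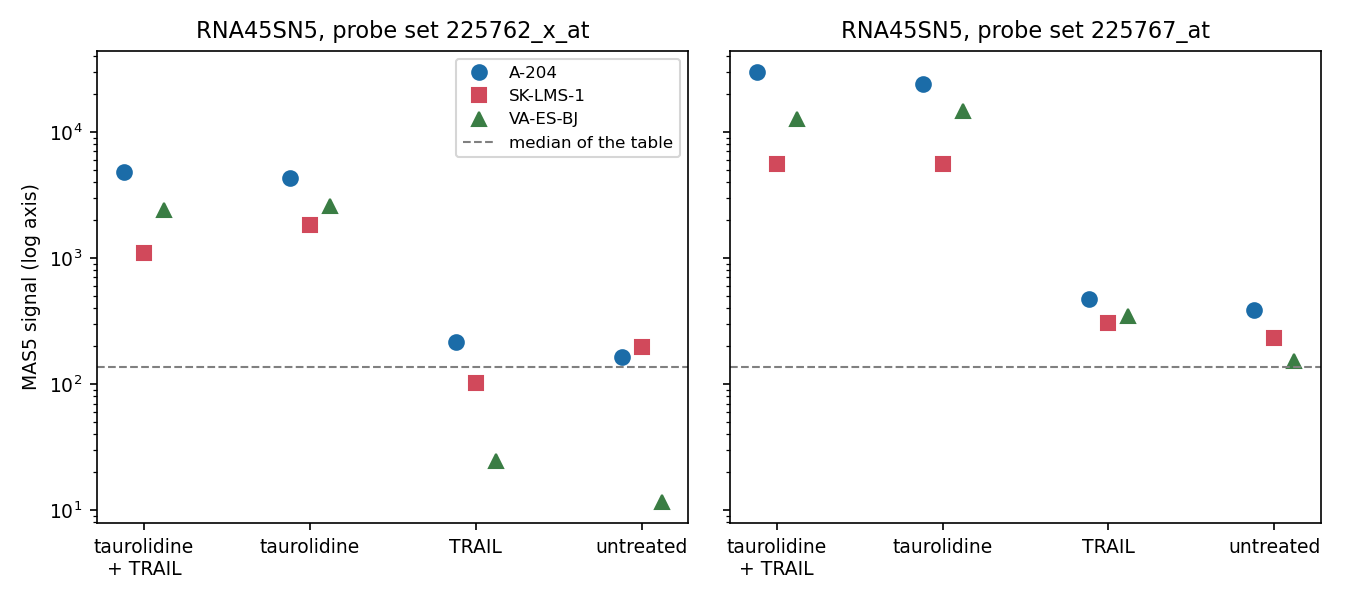
MAS5 signal (log axis) of each RNA45SN5 probe set on the 12 arrays, with treatments along the x axis, 1 symbol per cell line and a dashed line at the median of the whole table (136.5). The 6 arrays with taurolidine lie between 1097 and 4799.7 (225762_x_at) and between 5514 and 29661 (225767_at), all above the 6 arrays without it.

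As group means, 225762_x_at had a signal of 2766 ± 1878 with both agents, 2899.7 ± 1277 with taurolidine, 114 ± 96.5 with TRAIL and 124 ± 98.8 in untreated cells (SD, n = 3 lines each). Probe set 225767_at had 15942 ± 12406 with both agents, 14752 ± 9192 with taurolidine, 375 ± 89.3 with TRAIL and 256 ± 119 in untreated cells (SD, n = 3 lines each). Most of the spread between the arrays with taurolidine was between lines. In both probe sets, with and without TRAIL, A-204 was highest, VA-ES-BJ was next and SK-LMS-1 was lowest.

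The differences below are on the scale of log2(signal + 11.8), with 11.8 taken from the 10th percentile of all deposited values, and so are smaller than the plain ratios where a signal is low. For 225767_at, taurolidine minus untreated was 5.91 for A-204, 4.52 for SK-LMS-1 and 6.50 for VA-ES-BJ, a mean of 5.64 ± 1.02 (SD, n = 3 lines) or 50.0-fold. For 225762_x_at the same difference was 4.63, 3.13 and 6.78, a mean of 4.85 ± 1.84 or 28.8-fold. As plain ratios of the deposited signals, taurolidine over untreated was 62.0 for A-204, 24.1 for SK-LMS-1 and 97.4 for VA-ES-BJ for 225767_at, and 26.5, 9.22 and 220 for 225762_x_at. The last of these rests on an untreated signal of 11.7, near the 10th percentile of all values, and its size is therefore loosely fixed.

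With TRAIL present on both sides, the combination minus TRAIL alone was 5.07 ± 0.90 (SD, n = 3 lines) for 225767_at (33.5-fold) and 4.58 ± 1.39 for 225762_x_at (23.9-fold), again positive in 3 of 3 lines. The combination minus untreated was 5.67 ± 1.01 (50.9-fold) for 225767_at and 4.63 ± 2.14 (24.7-fold) for 225762_x_at, and it shares its untreated arrays with the taurolidine comparison. By size of the mean difference for taurolidine alone, 225767_at was at rank 1 and 225762_x_at at rank 4 of 32421 tested probe sets. Ranks differed between lines, at 1 (225767_at) and 3 (225762_x_at) for A-204, at 14 and 82 for SK-LMS-1, and at 2 and 1 for VA-ES-BJ. In bulk RNA from a dish, a change in the share of cells that hold an RNA and a change in its amount per cell cannot be told apart.

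The 2 probe sets moved together across treatments but were not copies of each other. With the mean of each line taken off, their log2 signals correlated at r = 0.98 over the 12 arrays, at 0.28 over the 6 with taurolidine and at 0.35 over the 6 without, so the high value comes from the contrast they were chosen for. The log2 difference between them, 225767_at less 225762_x_at, lay between 1.61 and 2.63 on arrays with taurolidine and between 0.23 and 3.81 on arrays without. In VA-ES-BJ 225762_x_at differed more between taurolidine and untreated cells than 225767_at did, and in the other lines it differed less.

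The spike-in RNAs give the scale of the arrays themselves, because the same amount is meant to enter each sample. Their geometric mean signal was 2389 for A-204, 1677 for SK-LMS-1 and 2082 for VA-ES-BJ with both agents, and 2541 (A-204), 2074 (SK-LMS-1) and 2317 (VA-ES-BJ) with taurolidine alone. It was 1447 (A-204), 1264 (SK-LMS-1) and 1449 (VA-ES-BJ) with TRAIL alone and 1534, 1334 and 1586 in untreated cells, so the 6 arrays with taurolidine were above the 6 without. Arrays with taurolidine exceeded those without by 0.59 ± 0.11 (SD, n = 3 lines; 1.5-fold), higher in 3 of 3 lines. In an exact 2-sided permutation test within lines, over 216 arrangements, p was 0.00926, the smallest this design can give, and also 0.00926 after Benjamini-Hochberg adjustment over the 6 spike tests. The single spikes differed by between 0.46 for trp and 0.63 for phe, each at that same p. With any 1 line left out the difference was between 0.52 and 0.62 and the smallest possible p was 0.0556.

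Less the spike-ins on the same arrays, the mean of both RNA45SN5 probe sets was still higher with taurolidine than in untreated cells by 4.55 for A-204, 3.19 for SK-LMS-1 and 6.10 for VA-ES-BJ, a mean of 4.61 ± 1.45 (SD, n = 3 lines). Without that subtraction the mean of both probe sets differed by 5.25 ± 1.41. For the combination minus TRAIL, the difference less the spike-ins was 4.28 ± 0.90.

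Which stretch of the precursor the RNA45SN5 probes match, a spacer or a mature RNA, could not be checked without their sequences, so their signal may not be that of the uncut precursor alone. The control probe sets for the mature RNAs differed far less with taurolidine. The 5′ end of 28S rRNA had signals of 1630.4 for A-204, 1283 for SK-LMS-1 and 487 for VA-ES-BJ with both agents, and of 1444, 839 and 1242 with taurolidine alone. It had 1119, 1219.8 and 2249 with TRAIL alone and 1271, 337 and 522 in untreated cells. Its highest signal was thus on the TRAIL array of VA-ES-BJ and its lowest on the untreated array of SK-LMS-1, and the groups overlapped.

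The middle of 28S rRNA was likewise mixed, with a range of 609 to 3485 over the 6 arrays with taurolidine and of 166 to 2252 over the 6 without. The 3′ end of 28S rRNA ranged over 62.7 to 309 with taurolidine and 18.6 to 77.6 without, and its highest signal, 309, came from A-204 with taurolidine alone. For 18S rRNA the 5′ end ranged over 80.5 to 282 with taurolidine and 40.4 to 278 without, the middle over 144 to 321 and 60.0 to 349, and the 3′ end over 85.5 to 307 and 133 to 327. In all 6 probe sets the arrays with and without taurolidine overlapped.

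By the same exact permutation test, none of the 9 rRNA comparisons (6 probe sets, the 18S mean, the 28S mean and the mean of all) passed after adjustment. The smallest p that this permutation test can give is 0.00926, and a single comparison at that value would not pass adjustment over 9. The lack of calls is therefore not evidence of no change in mature rRNA. The mean of all 6 was higher with taurolidine by 0.42 ± 0.36 (SD, n = 3 lines), higher in 3 of 3 lines, with an exact p of 0.23 and an adjusted p of 0.62. The 28S mean differed by 0.59 ± 0.35 (exact p = 0.11, adjusted p = 0.50) and the 18S mean by 0.25 ± 0.43 (exact p = 0.51, adjusted p = 0.76). In the single contrasts, given with no test, the 28S mean was higher with taurolidine than in untreated cells by 1.27 for A-204, 1.11 for SK-LMS-1 and 1.17 for VA-ES-BJ, a mean of 1.18 ± 0.08 (SD, n = 3 lines), and the mean of all 6 by 0.88 ± 0.37, beside 0.63 ± 0.09 for the spike-ins. With TRAIL on both sides the 28S mean differed by -0.004 ± 0.68 and the mean of all 6 by -0.05 ± 1.04. TRAIL alone minus untreated was 0.84 ± 0.57 for the 28S mean, higher in 3 of 3 lines. The smallest unadjusted value of the permutation tests was that of the 3′ end of 28S rRNA, at 0.99 ± 0.53 (exact p = 0.028, adjusted p = 0.25). Less the mean of the rRNA control probe sets, RNA45SN5 was higher with taurolidine than in untreated cells by 4.61 for A-204, 3.15 for SK-LMS-1 and 5.33 for VA-ES-BJ, a mean of 4.36 ± 1.11. The rRNA controls are probes to abundant RNAs without a tail, and how far they track rRNA content in these samples was not tested.

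**Figure D2:**
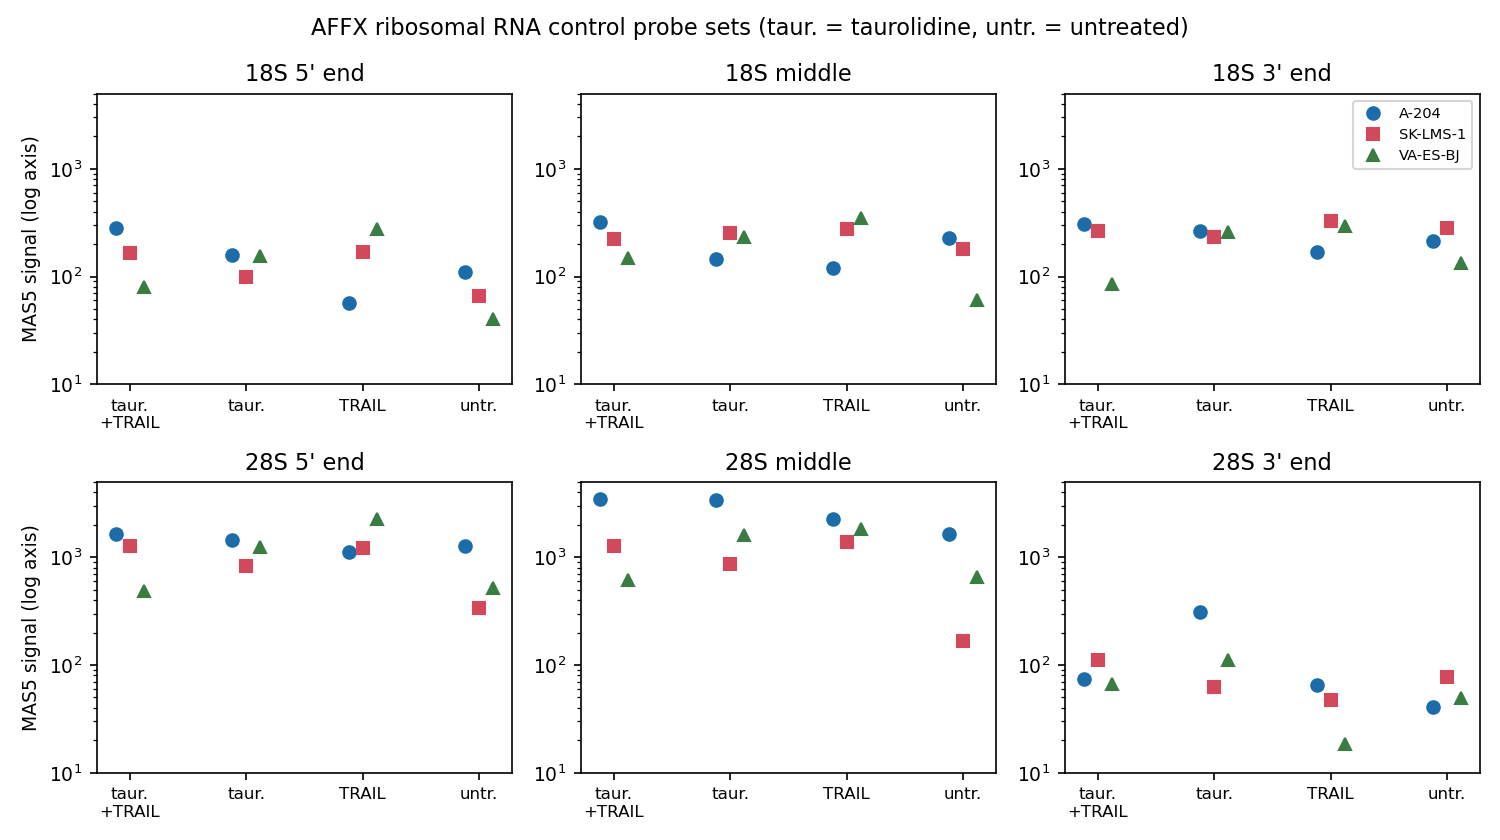
MAS5 signal (log axis) of the 6 control probe sets for 18S and 28S rRNA, with treatments along each x axis and 1 symbol per cell line. In each panel the arrays with and without taurolidine overlap, for instance 487 to 1630.4 with it and 337 to 2249 without it at the 5′ end of 28S rRNA.

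**Figure D3:**
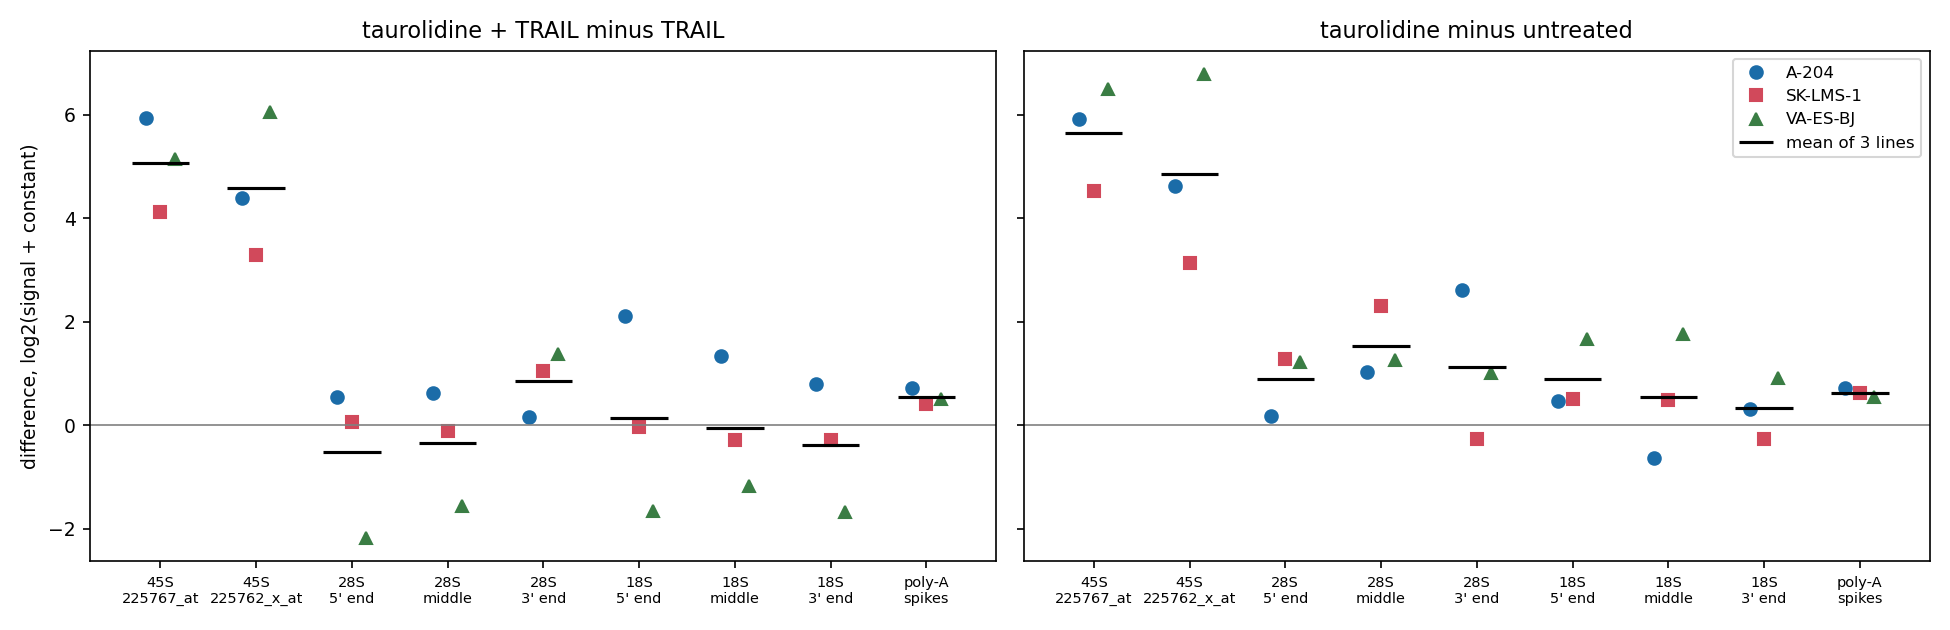
Difference in log2(signal + constant) for the combination minus TRAIL (left) and taurolidine minus untreated (right), with 1 symbol per cell line and a bar at the mean of the 3 lines. The RNA45SN5 probe sets lie between 3.13 and 6.78, the poly-A spike-ins near 0.59, and the rRNA controls on both sides of 0 in both panels.

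TRAIL, unlike taurolidine, was not part of the choice of the probe sets, although its contrasts share the untreated or the taurolidine arrays with it. TRAIL minus untreated was 0.60 ± 0.41 (SE) for 225767_at, with 0.29 for A-204, 0.38 for SK-LMS-1 and 1.13 for VA-ES-BJ (limma adjusted p = 1.00, higher in 3 of 3 lines). For 225762_x_at it was 0.05 ± 0.72 (SE), with 0.39, -0.89 and 0.64 (limma adjusted p = 1.00, higher in 2 of 3 lines). No probe set passed in that comparison: limma called 0 of 32421 (0%) after adjustment and 1393 at an unadjusted p under 0.05.

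Adding TRAIL to taurolidine gave 0.02 ± 0.41 (SE) for 225767_at and -0.22 ± 0.72 for 225762_x_at, with line values between -0.72 and 0.31 over both (limma adjusted p = 1.00 for each). In that comparison limma called 0 of 32421 probe sets (0%), with 1056 at an unadjusted p under 0.05. The departure of the combination from the sum of the single agents on the log2 scale was -0.58 ± 0.57 (SE) for 225767_at and -0.27 ± 1.01 for 225762_x_at (limma adjusted p = 1.00 for each). There limma called 0 of 32421 (0%), with 1375 at an unadjusted p under 0.05. None of these TRAIL values passed the test.

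Whether the difference with taurolidine varied between lines was tested with an F test of the line by taurolidine interaction in limma. The arrays of a line with and without TRAIL stood in for replicates of each taurolidine state, since no line has a repeated treatment. Any TRAIL effect therefore enters the error of this test. The largest less the smallest line difference, averaged over both TRAIL states, was 3.21 for 225762_x_at (limma adjusted p = 0.067) and 1.60 for 225767_at (adjusted p = 0.21). Neither passed, while 246 of 32421 probe sets (0.759%) did. With the constant raised to the median of the table, which damps low signals, the values were 1.62 (adjusted p = 0.0499) and 1.75 (adjusted p = 0.0438) and both passed. The probe sets were chosen for their taurolidine difference on these same arrays, so these p-values are not those of unselected probe sets. Without SK-LMS-1 the difference between the remaining lines was 0.10 for 225767_at (adjusted p = 0.96) and 1.90 for 225762_x_at (adjusted p = 0.15), and without VA-ES-BJ it was 1.30 for 225762_x_at (adjusted p = 0.37). The low signals of 225762_x_at in VA-ES-BJ without taurolidine, 24.7 and 11.7, weigh on its value.

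The genes whose signal followed RNA45SN5 most closely were sought by the Pearson correlation with the mean of both probe sets over the 12 arrays, after the mean of each line was taken off. The first 6 were IDH3B (r = 0.991), a subunit of mitochondrial isocitrate dehydrogenase, POLE4 (0.990), a small subunit of DNA polymerase epsilon, IMPDH2 (0.990), which makes the precursor of guanine nucleotides, BNIP3 (0.988), a mitochondrial protein of the BCL2 family, MRPS15 (0.986), a mitochondrial ribosomal protein, and CCNL1 (0.986), a cyclin of the splicing machinery. Across all tested probe sets 336 (1.04%) reached r = 0.95, and the mean of the poly-A spike-ins itself had r = 0.94. The arrays share the taurolidine contrast, so the measure ranks genes by how evenly they follow it in each line.

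In size the 6 were far from RNA45SN5. Taurolidine minus untreated was between 0.39 and 0.53 for IDH3B, POLE4, IMPDH2, BNIP3 and MRPS15, below the difference of the spike-ins, and turned to between -0.25 and -0.11 when arrays were scaled to the spike-ins. CCNL1, on the probe set that ranked here, differed by 2.01 and by 1.40 under that scaling, while 3 other probe sets of CCNL1 ranged over -1.06 to 0.31. The RNA45SN5 probe sets were at 4.25 and 5.02 under the same scaling.

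**Figure D4:**
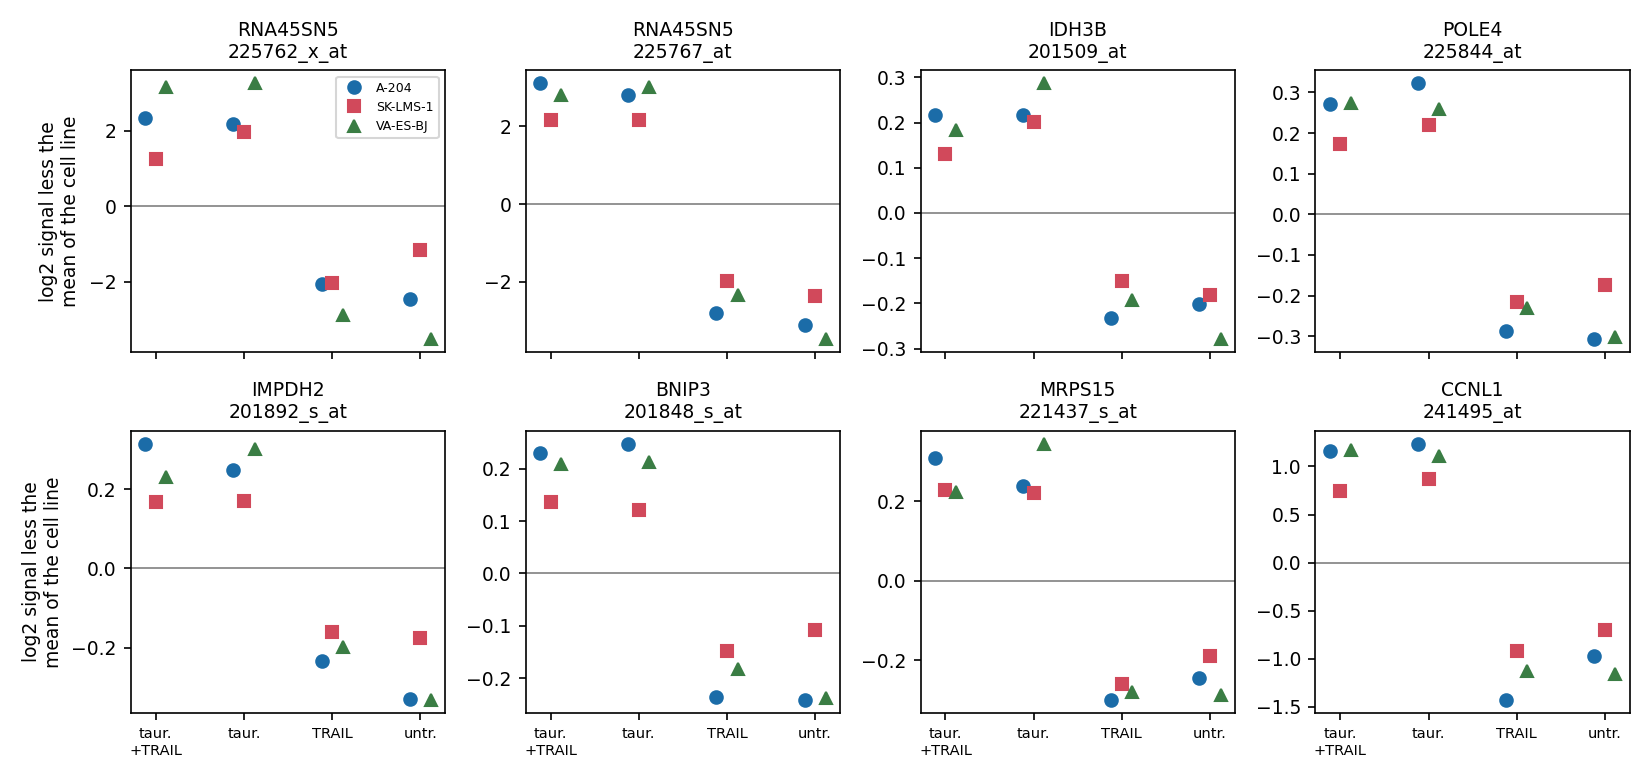
Log2 signal less the mean of its cell line (each y axis has its own scale) for the 2 RNA45SN5 probe sets and the 6 genes most like them, with treatments along the x axis and 1 symbol per line. All 8 panels show the arrays with taurolidine above those without, over about 6 log2 units for RNA45SN5 and under 1 for the genes other than CCNL1.

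Members were counted in 8 lists of 162 genes, of which 130 were tested, in the limma fit over all 14221 genes. Of the lists, 7 hold genes that make, process, degrade or sense ribosomal RNA, and the other holds RNAs made without a poly-A tail, of which 1 was tested. Taurolidine minus untreated passed for 13 members upwards and 19 downwards of 130, beside 1097 upwards (7.71%) and 1638 downwards (11.5%) of all genes. Those shares of all genes are also the setting for the counts of each list below, and no list was tested as a set. The balance over all genes depended on the scaling, with 1827 upwards and 1123 downwards at equal array medians, 1375 and 1280 after quantile normalisation, and 39 and 7967 when arrays were scaled to the spike-ins. For the combination minus untreated, which shares the untreated arrays, 1078 genes (7.58%) passed upwards and 1611 (11.3%) downwards. There 27 of the 32 list members called with taurolidine were called in the same direction. The matching share of all genes was not counted, so this overlap does not set the list members apart. With TRAIL alone limma called 0 of the list members, as it did for all probe sets. Taurolidine moved the median of all genes by -0.003.

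RNA polymerase I and its factors had 4 of 23 members up and 5 down, with a median of -0.21. POLR1B and POLR1A, the subunits that form its catalytic centre, fell by 1.00 ± 0.25 (SE; limma adjusted p = 0.028) and by 0.79 ± 0.20 (adjusted p = 0.027). TAF1D and TAF1A, of the promoter selectivity factor SL1, fell by 0.93 and 0.55 (adjusted p = 0.031 and 0.029). TTF1, which ends transcription at the rDNA terminator, fell by 0.84 ± 0.14 (adjusted p = 0.0070) on its brightest probe set, while its other probe set was at 0.20. In the combination minus untreated, POLR1A (-0.58, limma adjusted p = 0.076) and TAF1D (-0.67, adjusted p = 0.087) did not pass. POLR1B (adjusted p = 0.028) and TTF1 (adjusted p = 0.0036) passed there too. The 4 members that rose, POLR2F (0.53), POLR1D (0.52), POLR2L (0.41) and POLR2H (0.39), are subunits that RNA polymerase I shares with other polymerases. The 2 other probe sets of POLR1D were at -0.18 and -0.002.

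Among 14 regulators of ribosomal DNA chromatin 0 rose and 5 fell, with a median of -0.27. SIRT1, a deacetylase found in a silencing complex on ribosomal DNA, had a mean signal of 1298 with taurolidine and 2519.9 in untreated cells, and fell by 0.95 ± 0.10 (SE; limma adjusted p = 0.0015, lower in 3 of 3 lines). The histone demethylase genes KDM2A and KDM2B fell by 0.94 and 0.93 (adjusted p = 0.0081 and 0.0057). CTCF, an insulator protein, and SUV39H1, a histone methyltransferase, fell by 0.60 and 0.50 (adjusted p = 0.0072 and 0.041).

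The small subunit processome, the particle that folds and cleaves the 5′ part of the precursor, had 3 of 38 members up and 6 down, with a median of -0.18. IMP3, which binds U3 small nucleolar RNA to the precursor, had a mean signal of 1633 with taurolidine and 5227 in untreated cells. It fell by 1.65 ± 0.14 (SE; limma adjusted p = 0.00072), by 1.95 for A-204, 1.72 for SK-LMS-1 and 1.28 for VA-ES-BJ. Its partner MPHOSPH10 fell by 1.10 ± 0.12 (adjusted p = 0.0018). UTP15 (-0.86), UTP3 (-0.76), UTP20 (-0.64) and WDR75 (-0.48) also fell, while NOC4L (0.49), TBL3 (0.47) and FBL (0.42), the last being the methyltransferase of box C/D particles, rose.

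Large subunit processing had 1 of 24 members up, NSA2 at 0.47 ± 0.10 (SE, limma adjusted p = 0.019), and 0 down, with a median of 0.02. At an unadjusted p under 0.05 in limma there were 3 members, beside 4921 of all 14221 genes. RRS1, which brings the 5S particle to the large subunit, was at -0.83 (adjusted p = 0.083) and MDN1, a remodelling ATPase, at -0.51 (adjusted p = 0.062). Neither passed with taurolidine alone.

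The nuclear exosome and its adaptors had 3 of 20 members up and 3 down, with a median of -0.05. The core subunit genes EXOSC1, EXOSC5 and EXOSC8 rose by 0.58, 0.56 and 0.51 (limma adjusted p = 0.014, 0.013 and 0.0081). ZCCHC8, the scaffold of the nuclear exosome targeting complex, fell by 0.98 ± 0.12 (SE; adjusted p = 0.0025), with a mean signal of 2283 with taurolidine and 4465 in untreated cells. TENT4B and TENT4A, poly-A polymerases that put short tails on nuclear RNAs for decay, fell by 0.64 (adjusted p = 0.0084) and by 0.47 (adjusted p = 0.026).

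In the H/ACA particle, which guides pseudouridine formation in rRNA, NHP2 (0.43, limma adjusted p = 0.043) and NOP10 (0.42, adjusted p = 0.021) rose among 6 members. After quantile normalisation limma called 0 of these 6. Of the 5S particle and p53 checkpoint 4 genes were tested and limma called 0. At an unadjusted p under 0.05 there were 2, MDM2 and RPL11, beside 4921 of all 14221 genes. MDM2, the ligase for p53, was at -0.83 ± 0.35 (SE, adjusted p = 0.13), while its 6 other probe sets ranged over -1.23 to 0.51. RPL11 was at 0.32 ± 0.13 (adjusted p = 0.12) and CDKN1A, a p53 target, at 0.38 ± 0.24 (adjusted p = 0.30).

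**Figure D5:**
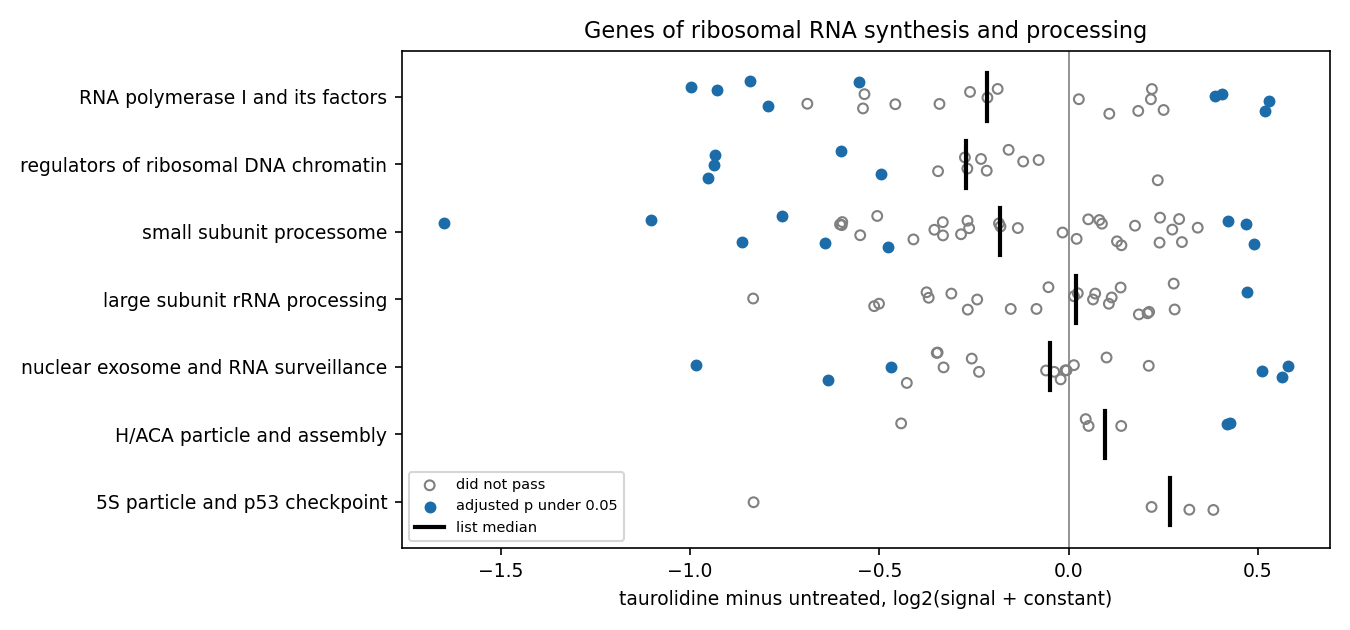
Taurolidine minus untreated in log2(signal + constant) for each tested gene of 7 lists (down the y axis), filled where the limma adjusted p was under 0.05, with a bar at the list median. Filled points lie on both sides of 0 for RNA polymerase I, the small subunit processome and the exosome, and only below 0 for the chromatin regulators.

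The direction of the list genes that rose depends on the scale. Scaling arrays to the spike-ins lowers each difference by about the 0.63 by which the spike-ins rose, and moved the median of all genes to -0.62. All 13 then lay between -0.25 and -0.06. The 19 that fell stayed below 0, but a shift downwards could not have turned them, so this is no check of the falls. These calls also rest on having all lines, as do those over all genes. Without A-204 or without SK-LMS-1 0 list genes rose and 4 fell, and without VA-ES-BJ 0 rose and 5 fell. Of all 14221 genes 28 rose and 335 fell without A-204, 33 and 392 without SK-LMS-1, and 49 and 312 without VA-ES-BJ.

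Other RNAs that are made without a poly-A tail could say whether RNA45SN5 stood alone, but few of those listed here were measured. Of 21 such RNAs listed, 2 had a probe set of their own. The list is not complete, and other such RNAs that the array may read were not examined here. RPPH1, the RNA of ribonuclease P, had signals of 20.8 to 114 with taurolidine and 8.09 to 68.9 without, and was too dim to be tested. MALAT1, a nuclear RNA with a triple helix at its end in place of a tail, had signals of 844 to 1770.3 with taurolidine and 576 to 1576 without. Its taurolidine difference was 0.35 ± 0.28 (SE; limma adjusted p = 0.42), and its 11 other probe sets ranged over -0.63 to 1.26.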

How the data were processed

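The authors deposited 1 intensity per probe set and array, on a linear scale, from MAS5 per the submitters' processing notes. The MAS5 version, scaling target and detection calls are not given in sources used here. The mean of each array without its lowest and highest 2% was 1000.1 to 1000.2. Nothing further was normalised. Of 54675 probe sets, 62 controls were left out of the fits, and 32421 that exceeded 136.5 on at least 3 arrays were tested as log2(intensity + 11.8) with limma 3.58.1 in R 4.3.3. Treatment and cell line were terms, with 6 residual and 2.04 prior degrees of freedom, Benjamini-Hochberg adjustment and a threshold of 0.05. The probe set with the highest mean stood for each of 14221 genes. The procedure was tested on simulated data. Arrays were paired by cell line: their deviations from treatment means correlated at 0.79 to 0.87 within lines and at -0.54 to -0.35 between lines, the negative sign following by construction. No label says that arrays came from separate cultures, so p-values measure the spread between these arrays, whose number limits the precision.

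RNA45SN5, the control probe sets, the 6 most alike genes and up to 4 members of each list were named by rule; other list genes were named after their values were seen. The members and lists were chosen with earlier results of these data known. Alternatives changed the constant, the scaling, the filter, the cell line term, the arrays fitted and the lines included.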

Additional observations from a re-analysis of the deposited data

How the results depend on the processing

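The rise of RNA45SN5 with taurolidine was between 3.54 and 5.71 for 225762_x_at and between 4.72 and 6.21 for 225767_at over the alternatives run, within 1 SD of the values given, but 225762_x_at has no value where a probe set must exceed the table median on all arrays. TRAIL minus untreated for 225762_x_at turned to -0.043 with the constant at the table median and -0.51 with arrays scaled to the rRNA controls, and was -0.25 to 0.51 with 1 line left out. For 225767_at it was -0.13 when scaled to the rRNA controls and 0.34 to 0.76 with 1 line left out. TRAIL added to taurolidine gave -0.41 to 0.029 for 225762_x_at with 1 line left out. For 225767_at it gave -0.0056 after quantile normalisation, -0.045 with equal array medians and -0.12 to 0.15 with 1 line left out. The departure from additivity was 0.49 and 0.35 when scaled to the rRNA controls. None of these TRAIL values passed the test, and the cause of each turn was not tested. With the constant at the table median the line differences became 1.62 and 1.75, both passing, on the arrays used to choose the probe sets. With 1 line left out they were 1.30 to 3.21 for 225762_x_at and 0.097 to 1.60 for 225767_at, none passing. Scaled to the spike-ins, the 18S mean was -0.31 and the mean of all rRNA controls -0.14; with 1 line left out the 18S mean was -0.00051 to 0.38. The spike-ins scaled to the rRNA controls were 0.12, no longer past the threshold, and were 0.52 to 0.62 with 1 line left out, where 2 lines cannot give a p under 0.0556. Beside the 13 list genes higher and 19 lower given above, there were 9 and 15 after quantile normalisation (1375 and 1280 of all 14221 genes). At equal array medians there were 15 and 13 (1827 and 1123 of all genes), so the balance turned. With arrays scaled to the spike-ins there were 0 and 101 (39 and 7967 of all genes). Scaled to the rRNA controls there were 0 and 36 (13 and 3192 of all genes). With no filter there were 6 and 10 (509 and 1153 of 19775 genes). With 1 line left out 0 were higher and 4 to 5 lower (28 to 49 and 312 to 392 of all 14221 genes). The filter on all arrays left 14 higher and 30 lower (1591 and 1908 of 9608 genes). With no replicate block, that is without the cell line pairing, 0 were higher and 1 lower (6 and 142 of all 14221 genes). With only the 6 arrays compared in the fit 0 were higher and 0 lower in limma, as over all genes. Fewer degrees of freedom follow from that construction. The number of arrays and signals near 11.8 limit the precision, not a count of reads.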
